A study of Mus musculus with 15 samples.

Results

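The TAM receptors Tyro3, Axl and Mertk and their ligands Gas6 and protein S (gene Pros1) were followed in D1 cells, a long-term dendritic cell (DC) line from the spleen of C57BL/6 mice. These 5 genes were taken out of 19937 genes on the array by their symbols, and each was measured by 1 probe set. They were selected on the measured difference of Mertk between curdlan with FK506 and curdlan, which passed the test at both times studied, so that this difference is given below as a description, without a test. Total RNA was hybridised to 15 arrays in 5 groups of 3 labelled biological replicates, namely cells given curdlan with FK506 for 2 h, curdlan with FK506 for 4 h, curdlan alone (10 µg/ml) for 2 h, curdlan alone for 4 h, and nontreated cells. Curdlan is a particulate beta-glucan that activates the receptor Dectin-1, and FK506 (tacrolimus) inhibits the phosphatase calcineurin, which activates the NFAT transcription factors. The comparison of curdlan with FK506 against curdlan therefore addressed which curdlan responses needed calcineurin. All groups came from 1 cell line, and no group here received FK506 without curdlan, so an effect of FK506 on its own and an effect on the curdlan response cannot be told apart.

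TAM receptors are receptor tyrosine kinases of macrophages, DCs and other cells. Gas6 and protein S carry gamma-carboxylated glutamates, made with vitamin K, through which they bind phosphatidylserine on dying cells and bridge these cells to the receptors. In DCs and macrophages the receptors promote the uptake of apoptotic cells and, together with the type I interferon receptor, induce SOCS proteins that restrain Toll-like receptor and cytokine signalling. In mouse macrophages Mertk is a target of the nuclear receptor LXR, and the Mertk protein can be shed from the surface by the protease ADAM17.

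The sequence upstream of Mertk is shown because Mertk was the member that differed with a calcineurin inhibitor and the NFAT site is the motif tied to calcineurin. In RefSeq for GRCm38.p6, Mertk lies on the plus strand of chromosome 2 (chr2:128698915-128803162), and the 250 bases before its start are chr2:128698665-128698914. Capitals mark CCGCCC, the reverse complement of the GC box GGGCGG.
Mertk upstream: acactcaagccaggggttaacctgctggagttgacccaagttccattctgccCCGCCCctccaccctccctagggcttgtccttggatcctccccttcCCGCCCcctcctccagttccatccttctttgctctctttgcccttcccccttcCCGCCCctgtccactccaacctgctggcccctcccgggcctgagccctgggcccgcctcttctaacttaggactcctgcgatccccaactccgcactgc
The GC box was found 3 times in this window (GGGCGG searched on both strands, in the same window of 32851 promoters, 32.7% of which held it). It is not particular to Mertk, as the windows of Axl, Tyro3, Gas6 and Pros1 held it 1, 3, 4 and 5 times. The NFAT core GGAAA had no match on either strand of the Mertk window, whereas 55.6% of promoters held it, and the longer form GGAAAA, which contains the core, had no match in the window of any of the 5 genes and was held by 20.4% of promoters. The core was found once each in the windows of Axl, Tyro3 and Pros1, and was not found in that of Gas6. The Tyro3 window (chr2:119799264-119799513) and the Axl window (chr7:25788734-25788983) precede start sites inside the gene spans given below. The first lies within its gene span and the second overlaps it. The AP-1 motif TGANTCA had no match in the window of any of the 5 genes (6.75% of promoters held it). These are matches of letters in a short window, and they do not show where a factor binds. Sequence further from the start or within the genes was not searched. The study mapped NFATc2 binding over the genome by ChIP-seq in curdlan-stimulated D1 cells. Those data were not examined here, so whether NFATc2 binds at Mertk is left to them.

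Values are log2 intensities after robust multi-array averaging (RMA), in which 1 unit is a factor of 2. Because probes differ in brightness, levels of different probe sets are compared only roughly, by their place among the means of all genes. Array medians lay between 6.45 and 6.57, and the mean correlation of an array with the others of its group was between 0.995 and 0.999. Nontreated replicate 1 and curdlan 2 h replicate 3 stood furthest from their groups (limma array weights of 0.0781 and 0.119). The genes Rcan1, Egr2, Egr3, Nr4a1 and Il2, chosen as a check of calcineurin inhibition, were all lower with FK506 at both times. The differences were -1.61 (Il2) to -1.10 (Egr3) at 2 h and -1.83 (Il2) to -0.69 (Rcan1) at 4 h on the log2 scale. These genes were chosen with earlier results of these data known. The study had reported Il2 as lower with FK506 on these arrays, and Egr2, Egr3 and Nr4a1 as NFAT targets. The fall of these genes is therefore a description and not an independent check. Of 14 conventional DC markers, 10 had a mean level at or above the upper quartile of all genes, among them Itgax, Cd74 and H2-Ab1, while the DC transcription factor Zbtb46 was between the median and the upper quartile and Flt3 below the median. The macrophage markers Csf1r, Adgre1 and Cd68 were also above the upper quartile, as were 7 of 14 macrophage markers in all. None of the B cell, NK cell, neutrophil, fibroblast or mast cell and basophil markers and 1 of 7 T cell markers reached it.

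Mertk, the receptor tyrosine kinase of apoptotic cell uptake in macrophages, was lower in cells given curdlan with FK506 than in cells given curdlan or no treatment. At 2 h its log2 levels were 6.88, 7.03 and 7.04 with curdlan and FK506, against 8.57, 8.60 and 8.36 with curdlan. At 4 h they were 6.28, 6.15 and 6.08 with curdlan and FK506, against 8.29, 8.43 and 8.40 with curdlan. Every array with FK506 was below every array without it, and nontreated cells had 7.90, 8.26 and 8.16. Because RNA was taken from whole cultures, fewer Mertk-expressing cells and less Mertk RNA per cell cannot be told apart.

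**Figure D1:**
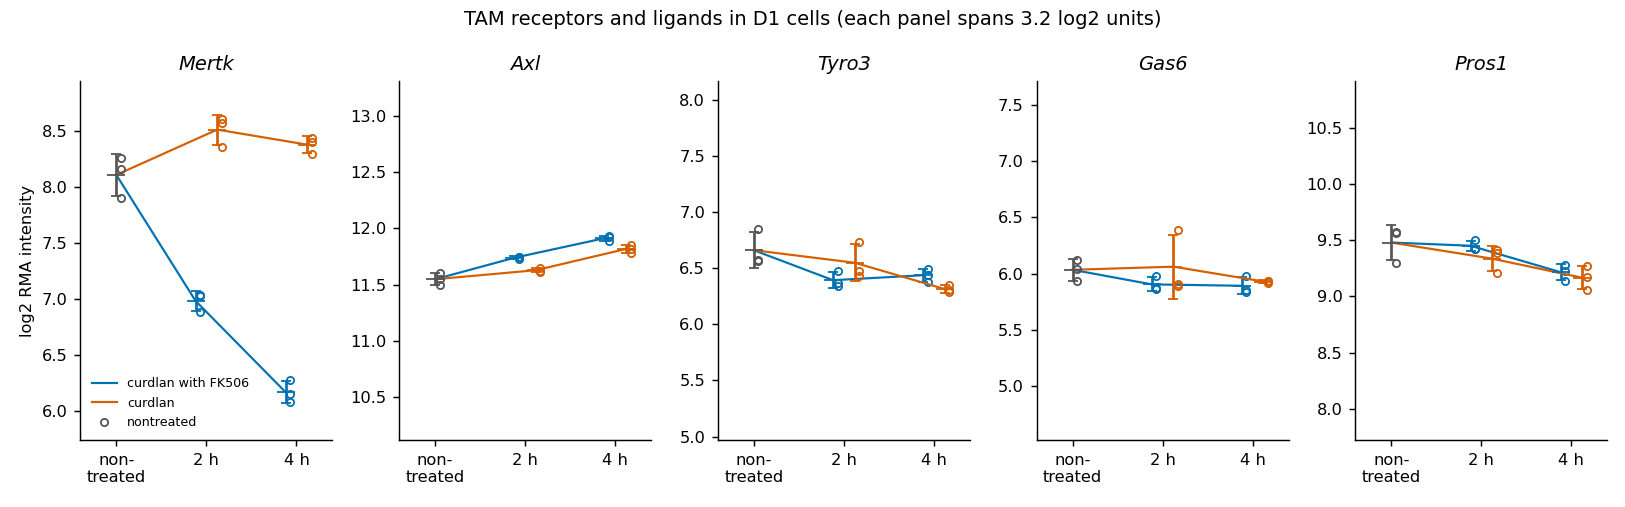
Log2 RMA intensity (y axis) of Mertk, Axl, Tyro3, Gas6 and Pros1 in nontreated cells and after 2 h and 4 h (x axis) of curdlan with FK506 (blue) or curdlan (orange). Circles are single arrays, lines join group means, bars are the SD of 3 arrays, and all panels span the same range; Mertk fell to 6.98 at 2 h and 6.17 at 4 h with FK506, while the curdlan means were 8.51 and 8.38.

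Cells given curdlan with FK506 averaged 6.98 ± 0.09 at 2 h and 6.17 ± 0.10 at 4 h, cells given curdlan 8.51 ± 0.13 and 8.38 ± 0.07 at the same times, and nontreated cells 8.11 ± 0.19 (SD, n = 3 each). Of these Mertk means, only the 6.17 was below the median gene (6.76). The difference, curdlan with FK506 minus curdlan, was -1.53 ± 0.09 (SE) at 2 h on the log2 scale, a level 2.88-fold lower, and -2.20 ± 0.09 at 4 h, a level 4.61-fold lower. These are the values on which Mertk was selected, and the difference at 4 h minus that at 2 h, -0.68 ± 0.13, comes from the same arrays. A gene was called changed at an adjusted p below 0.05 (limma, Benjamini-Hochberg over 19937 genes) and a change of at least 1.5-fold. By this rule 0.762% of all genes were called lower with FK506 at 2 h and 1.53% at 4 h, and 94 genes were lower at both times. Mertk stood 19th among these 94 when they were ordered by the smaller of their falls. At the edge of the rule, P3h2 (-0.68 at 2 h and -0.59 at 4 h) and Rassf4 (-0.77 and -0.59) were just inside, and P2ry10b (-1.19 and -0.58) and Tmcc3 (-0.57 and -0.60) just outside.

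The Mertk level with curdlan and FK506 was also set against that of nontreated cells. These tests use the arrays with FK506 on which Mertk was selected, so they are not independent of that choice. Mertk fell below nontreated cells by 1.12 on the log2 scale at 2 h (95% interval -1.32 to -0.92, 2.18-fold, adjusted p = 1.54e-06). At 4 h it fell by 1.94 (-2.14 to -1.73, 3.82-fold, adjusted p = 2.79e-09). The share of all genes called lower was 0.537% at 2 h and 2.43% at 4 h, and Mertk had the 4th largest and the 2nd largest of these falls. With curdlan and FK506 it was lower at 4 h than at 2 h, by 0.81 (-1.02 to -0.61, adjusted p = 3.72e-05), in a comparison in which 0.782% of genes were called lower.

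With curdlan alone Mertk stayed within 1.5-fold of nontreated cells. The curdlan arrays are also among those on which Mertk was selected, so these tests are not independent of that choice either. Its level was 0.40 higher at 2 h (95% interval 0.20 to 0.61, adjusted p = 0.00649) and 0.27 higher at 4 h (0.07 to 0.47, adjusted p = 0.0378) on the log2 scale. At both times the 3 curdlan arrays lay above the 3 nontreated arrays (the groups did not overlap for 25.1% of all genes at 2 h and 50.6% at 4 h), but the differences were under the 1.5-fold needed for a call, and without nontreated replicate 1 and curdlan 2 h replicate 3 they were 0.37 and 0.16. The curdlan arrays at 4 h and 2 h overlapped (difference -0.13, adjusted p = 0.310). The order of the Mertk levels was therefore curdlan at 2 h and 4 h, which overlapped, then nontreated cells, then curdlan with FK506 at 2 h, then curdlan with FK506 at 4 h, with no overlap at any of the later steps. The share of all genes without overlap is not given here for the steps from nontreated cells to the groups with FK506.

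Neither Axl nor Tyro3 was called with FK506 against curdlan at 2 h or 4 h. Axl (chr7:25756500-25788924), which binds Gas6 and is known in mouse DCs as the TAM receptor induced by interferon, had log2 levels of 11.75, 11.73 and 11.74 with curdlan and FK506 at 2 h, against 11.61, 11.63 and 11.65 with curdlan. At 4 h the levels were 11.89, 11.93 and 11.92 with curdlan and FK506, against 11.85, 11.78 and 11.82 with curdlan. The groups did not overlap at either time, but the differences were 0.11 (95% interval 0.03 to 0.20, adjusted p = 0.125) at 2 h and 0.10 (0.01 to 0.18, adjusted p = 0.172) at 4 h. Neither passed the test, and both intervals lie within 1.5-fold. Either direction counted, 1.12% of all genes were called at 2 h (0.361% higher) and 1.75% at 4 h (0.211% higher), and 28.5% and 36.3% of genes had groups that did not overlap.

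Against nontreated cells, which had 11.55, 11.49 and 11.60, Axl had small and precise differences. It was 0.19 higher with curdlan and FK506 at 2 h (adjusted p = 0.00346), 0.37 higher with both at 4 h (adjusted p = 6.89e-06), and 0.08 (adjusted p = 0.203) and 0.27 (adjusted p = 7.69e-05) higher with curdlan at 2 h and 4 h on the log2 scale. None of these reached 1.5-fold. The 5 group means ran from 11.91 with curdlan and FK506 at 4 h through 11.82 with curdlan at 4 h, 11.74 with curdlan and FK506 at 2 h and 11.63 with curdlan at 2 h to 11.55 in nontreated cells, and no neighbours in this order overlapped. Such gaps were common among all genes: 36.3% with and without FK506 at 4 h, 28.5% at 2 h, and 25.1% for curdlan at 2 h against nontreated cells. The share for curdlan at 4 h against curdlan with FK506 at 2 h is not given here.

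Tyro3 (chr2:119797740-119818104), the TAM receptor best known from the nervous system and also found on DCs, had log2 levels of 6.36, 6.47 and 6.34 with curdlan and FK506 at 2 h, against 6.43, 6.48 and 6.74 with curdlan. At 4 h it had 6.49, 6.38 and 6.44 with curdlan and FK506, against 6.35, 6.29 and 6.30 with curdlan. The groups overlapped at 2 h (-0.16, 95% interval -0.34 to 0.03, adjusted p = 0.343) and did not overlap at 4 h (0.12, -0.06 to 0.31, adjusted p = 0.533). The difference at 4 h minus that at 2 h was 0.28 (adjusted p = 0.259), in a comparison in which 1.23% of genes were called. Nontreated cells had 6.85, 6.56 and 6.57. Against these, curdlan with FK506 was -0.27 at 2 h (adjusted p = 0.0489) and -0.22 at 4 h (adjusted p = 0.0786), and curdlan at 4 h was -0.35 from them on the log2 scale (adjusted p = 0.00599), all under 1.5-fold. In the order of the 5 Tyro3 group means every pair of neighbours overlapped. The mean of Tyro3 over the 15 arrays, 6.47, was below the median gene (6.76), and a low signal limits what these differences show.

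Neither ligand gene was called with FK506. Gas6 (chr8:13465374-13494535), the ligand of all 3 receptors, had log2 levels of 5.87, 5.87 and 5.98 with curdlan and FK506 at 2 h, against 5.90, 5.89 and 6.39 with curdlan. The 6.39 of curdlan 2 h replicate 3 was 0.49 above the mean of the other 2 arrays of its group. At 4 h Gas6 had 5.98, 5.84 and 5.86 with curdlan and FK506, against 5.93, 5.93 and 5.92 with curdlan, and nontreated cells had 6.04, 5.93 and 6.12. All groups overlapped, and the FK506 differences were -0.16 (95% interval -0.39 to 0.07, adjusted p = 0.423) and -0.04 (-0.27 to 0.19, adjusted p = 0.914) at 2 h and 4 h. The mean of Gas6 over the 15 arrays, 5.96, was below the median gene (6.76). It lay near the means of the T cell marker Cd3e (6.01) and the B cell marker Pax5 (5.99). Whether Gas6 was expressed in these cells therefore cannot be told from its level.

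Pros1 (chr16:62854307-62929346), which encodes protein S, a ligand of Mertk and Tyro3 and a plasma anticoagulant, had log2 levels of 9.42, 9.43 and 9.50 with curdlan and FK506 at 2 h, against 9.41, 9.39 and 9.21 with curdlan. At 4 h it had 9.28, 9.23 and 9.14 with curdlan and FK506, against 9.06, 9.27 and 9.17 with curdlan. The arrays at 2 h did not overlap and those at 4 h did, with differences of 0.12 (95% interval -0.06 to 0.29, adjusted p = 0.440) and 0.05 (-0.13 to 0.22, adjusted p = 0.844). Nontreated cells had 9.30, 9.56 and 9.58. Pros1 was below nontreated cells at 4 h both with curdlan and FK506 (-0.26, adjusted p = 0.0265) and with curdlan alone (-0.31, adjusted p = 0.00743) on the log2 scale, in each case by less than 1.5-fold.

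**Figure D2:**
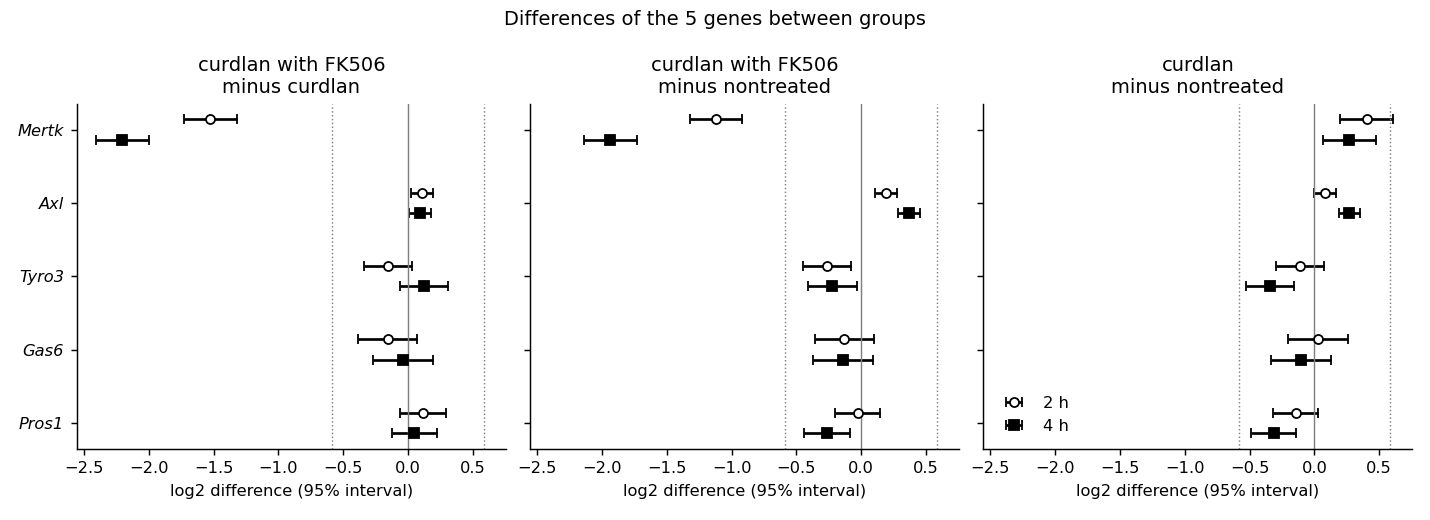
Log2 differences (x axis) of the 5 genes with their 95% intervals at 2 h (open circles) and 4 h (filled squares), for curdlan with FK506 minus curdlan, curdlan with FK506 minus nontreated, and curdlan minus nontreated. Dotted lines mark 1.5-fold; only the Mertk values in the 2 panels with FK506 lie beyond them.

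Counted over the comparisons, 0 of 5 genes were called with curdlan against nontreated cells at 2 h and 4 h, where 3.6% of all genes (2.2% higher and 1.4% lower) and 9.2% (5.05% higher and 4.15% lower) were called. With curdlan and FK506 against nontreated cells, 1 of 5 (Mertk) was called at each time, against 2.35% and 5.38% of all genes. At 4 h against 2 h, 1 of 5 (Mertk) was called with curdlan and FK506 (1.69% of genes) and 0 of 5 with curdlan (4.09% of genes). Each count of 1 of 5 is Mertk alone, on arrays with FK506 by which it was selected. These counts are therefore not independent of that choice and are not a result about the 5 genes. The median difference over all genes was -0.12 for curdlan at 4 h against nontreated cells, and -0.01 after each array was centred on its median. With that centring Tyro3 at 4 h of curdlan was -0.24, Pros1 -0.21, Axl 0.38 and Mertk 0.38 from nontreated cells, and Gas6 was 0.00 in place of -0.10, none of them at 1.5-fold.

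Genes that make or cut the TAM proteins were examined next. Of 4 genes of the vitamin K cycle that carboxylates the ligands, none was called in any comparison, and for Ggcx, the gamma-glutamyl carboxylase, the FK506 difference was 0.16 at 2 h and 0.14 at 4 h, with those of the other 3 genes between -0.14 and 0.08. Of 6 genes of receptor shedding, 2 rose with curdlan at each time (2.2% of all genes at 2 h and 5.05% at 4 h). Furin, the convertase that matures ADAM17, rose by 1.56 at 2 h and 1.96 at 4 h on the log2 scale (adjusted p = 2.12e-11 and 1.18e-12). Rhbdf2, which encodes the ADAM17 partner iRhom2, rose by 1.04 at 2 h (adjusted p = 2.63e-10), and Adam17 itself by 0.64 at 4 h (adjusted p = 1.63e-07, and 0.57, under 1.5-fold, after a repeated quantile normalization). With FK506 against curdlan none of the 6 was called. The largest such differences were those of Furin (0.30 at 2 h and 0.21 at 4 h) and of Adam10, a related sheddase (-0.20 and -0.36). The arrays measured RNA, so the amount of Mertk protein at the cell surface was not measured.

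Among 17 genes of TAM signalling and its feedback, curdlan raised 2 at 2 h and 4 at 4 h and lowered 1 at 2 h. Of all genes, 2.2% were called higher and 1.4% lower at 2 h, and 5.05% higher at 4 h. Socs3, a feedback inhibitor of cytokine receptors, rose by 2.33 and 2.00 on the log2 scale at 2 h and 4 h, and Tnfaip3, which encodes the NF-kappaB inhibitor A20, by 2.83 and 2.99 (adjusted p from 3.45e-13 to 3.20e-11 over these 4 values). Pik3r1, a regulatory subunit of PI3 kinase, rose by 1.09 at 4 h, and the kinase gene Src by 0.79. Pik3cg, a catalytic subunit of PI3 kinase, fell by 0.68 at 2 h. Socs3 was not called with FK506 (-0.17 at 2 h, adjusted p = 0.183, and 0.12 at 4 h, adjusted p = 0.349), and neither was Socs1 (-0.08 and 0.03). The only gene of this list called with FK506 was Src, which was higher by 0.71 at 2 h (adjusted p = 1.81e-07) and by 0.40 at 4 h, under 1.5-fold (adjusted p = 3.45e-05). Of all genes, 0.361% were called higher with FK506 at 2 h.

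Of 27 other phosphatidylserine receptors and bridging proteins, 2 were called higher with FK506 at 2 h and 1 lower at 4 h. Of all genes, 0.361% were called higher at 2 h and 1.53% lower at 4 h. Stab1, encoding the scavenger receptor stabilin-1, was higher by 0.64 (adjusted p = 4.35e-06) and Cd300lb, an activating receptor of myeloid cells, by 0.61 (adjusted p = 4.19e-05) on the log2 scale. The Cd300lb call was lost, at 0.55, when arrays were centred on housekeeping genes. Cd36, a scavenger receptor that takes part in apoptotic cell uptake, was lower with FK506 at 4 h by 0.64 (adjusted p = 0.00215) and had risen by 1.62 with curdlan at that time (adjusted p = 8.21e-08). With curdlan 1 of the 27 rose at 2 h, and 4 rose and 1 fell at 4 h. The shares of all genes were 2.2% higher at 2 h, and 5.05% higher and 4.15% lower at 4 h. Havcr2, encoding TIM-3, rose at both times (0.74 and 1.61), and its FK506 differences were 0.10 and -0.11. Havcr1, encoding TIM-1, and Lrp1, a receptor for calreticulin, rose at 4 h (0.99 and 0.61), and Cd300lf, an inhibitory relative of Cd300lb, fell (-0.78). The Lrp1 call was lost, at 0.58, without nontreated replicate 2 or 3 or curdlan 4 h replicate 1 or 2. The median FK506 difference of the 27 genes was -0.06 at 2 h and 0.07 at 4 h, beside -0.03 and 0.03 for all genes.

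Of 23 genes of the engulfment machinery, 1 was called with FK506 against curdlan, at 2 h (1.12% of all genes were called). This was Abca1, the cholesterol exporter that is also an LXR target and stands in both lists, and it was lower by 0.91 on the log2 scale (adjusted p = 2.14e-06). Abca1 had risen with curdlan at 2 h, by 0.66 (adjusted p = 1.22e-05), and was -0.16 from nontreated cells at 4 h (adjusted p = 0.0891). With curdlan and FK506 it was -0.24 from nontreated cells at 2 h (adjusted p = 0.0325). At 4 h its FK506 difference was -0.19 (adjusted p = 0.135), and the 2 differences differed by 0.72 (adjusted p = 0.000995). Rubcn, a regulator of LC3-associated phagocytosis, fell with curdlan (-0.61 at 2 h and -0.69 at 4 h, but -0.57 and -0.58, under 1.5-fold, after median centring) and was not called with FK506 (0.08 and 0.25). Elmo2, whose protein works with DOCK proteins to activate Rac, fell with curdlan at 4 h (-0.69, but -0.58, under 1.5-fold, after median centring), and Cybb, a subunit of the phagocyte NADPH oxidase, rose (0.67). Dock1 was lower with curdlan and FK506 than in nontreated cells at 4 h (-0.61, adjusted p = 6.68e-06), a call that was lost after median centring (-0.54) and without nontreated replicate 2 or 3 (-0.57 and -0.58). It was also lower with curdlan alone, as Dock1 averaged 8.57 with curdlan and FK506 at 4 h, 8.73 with curdlan and 9.18 in nontreated cells.

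Genes that control Mertk in macrophages, or share its control there, were compared next. Of 15 genes of the LXR, RXR and PPAR receptors and LXR targets, Abca1 alone was called with FK506 (at 2 h, 1.12% of all genes). Abcg1, another cholesterol exporter and LXR target, fell with curdlan by 0.98 at 2 h and 0.89 at 4 h on the log2 scale (adjusted p = 9.18e-07 and 9.59e-07), with FK506 differences of 0.33 and -0.04, while Abca1, as given above, rose with curdlan at 2 h. Scd2, a fatty acid desaturase, and Srebf1, which encodes the lipogenic factor SREBP-1, fell with curdlan at 4 h (-1.01 and -0.75). At 4 h Scd2 averaged 11.42 with curdlan and FK506, against 10.91 with curdlan and 11.91 in nontreated cells. Srebf1 averaged 9.15, 8.94 and 9.69 in the same groups. Nr1h3, encoding LXR alpha, had FK506 differences of -0.15 (adjusted p = 0.504) and 0.07 (adjusted p = 0.868). Of 12 transcription factors tied to Mertk, Irf1, the interferon-responsive factor, was called with FK506, at 4 h (-0.72, adjusted p = 2.94e-07, and -0.56, under 1.5-fold, as the mean of its probe sets), and had risen with curdlan (0.81 at 2 h and 1.06 at 4 h). At 4 h 1.75% of all genes were called with FK506. Mef2c, a myeloid and muscle factor, fell with curdlan at 4 h (-1.06) with an FK506 difference of 0.16.

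Since Mertk marks macrophages, the macrophage markers were followed in the same arrays. Averaged over the 14 markers, arrays ranged from 8.19 to 8.21 with curdlan and FK506 at 4 h, against 8.14 to 8.17 with curdlan, and from 8.19 to 8.24 at 2 h, against 8.20 to 8.31 with curdlan, and nontreated arrays from 8.22 to 8.24. The only marker called with FK506 was Cd14, the lipopolysaccharide co-receptor, lower by 0.90 at 4 h (adjusted p = 0.000726), and its part in the Mertk difference was not tested. Of all genes, 1.53% were called lower with FK506 at 4 h. Cd14 had risen with curdlan (0.71 at 2 h, but 0.54, under 1.5-fold, without nontreated replicate 1, and 1.12 at 4 h). Csf1r, Adgre1 and Cd68 were not called with FK506 against curdlan. No conventional DC marker was called in that comparison, with values at 4 h of -0.53 for Ccr7 and -0.50 for Irf8. With curdlan Irf8 (1.59 at 2 h and 2.40 at 4 h) and Irf4 (0.87 and 1.21), DC transcription factors, rose at both times, and Ccr7 at 4 h (1.08). Of 7 T cell markers, Cd5 was called lower with FK506 at 4 h (-0.64, adjusted p = 4.57e-07), and it was the T cell marker above the upper quartile. The other 6 were not called with FK506 against curdlan, and the T cell receptor genes Cd3e, Cd3g and Cd3d were below the median gene. Averaged over the 7 markers, arrays ranged from 5.58 to 5.68 with curdlan and FK506 at 4 h, against 5.65 to 5.70 with curdlan, and from 5.70 to 5.73 at 2 h, against 5.67 to 5.94 with curdlan, and nontreated arrays from 5.76 to 6.05, and the part of Cd5 in the Mertk difference was not tested. Of 6 NK cell markers, Klrk1 was called higher with curdlan at 4 h (0.67, adjusted p = 0.0171, but 0.42 without nontreated replicate 1). Of all genes, 5.05% were called higher with curdlan at 4 h.

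**Figure D3:**
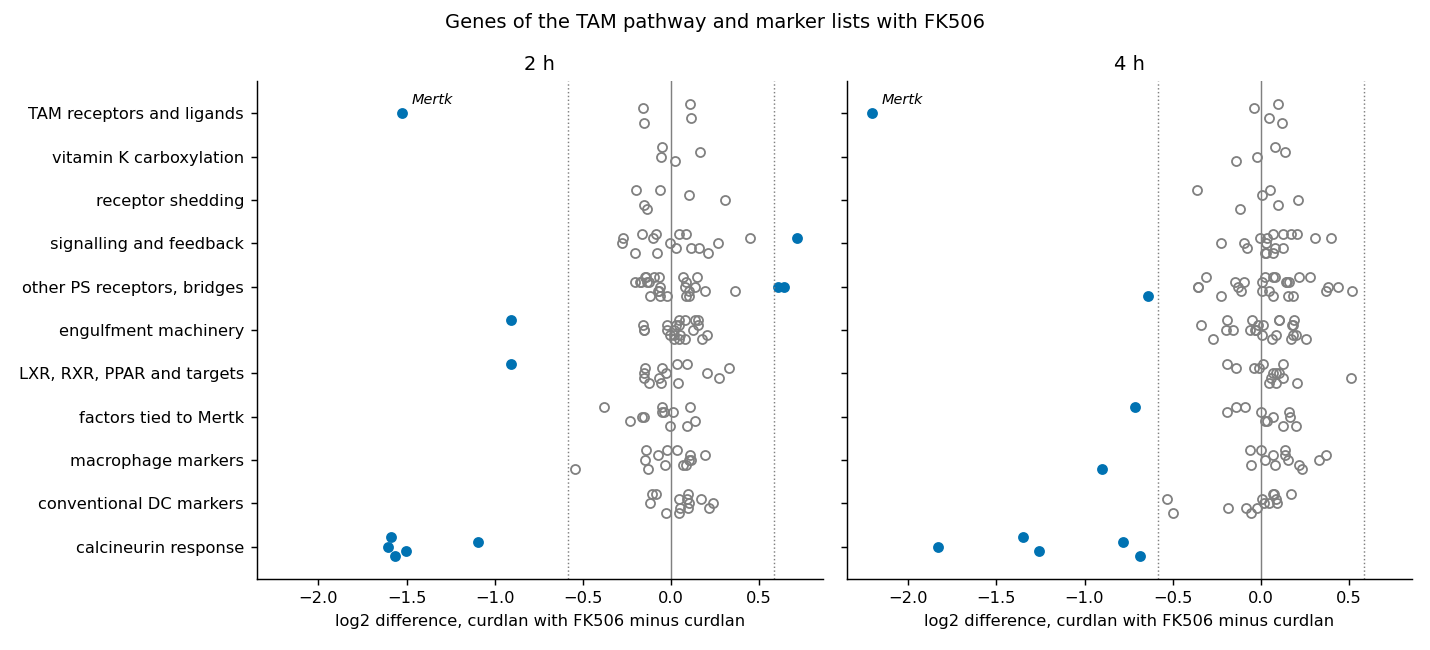
Log2 difference, curdlan with FK506 minus curdlan (x axis), for each measured gene of 11 lists (rows) at 2 h (left) and 4 h (right). Filled blue points were called and dotted lines mark 1.5-fold; Mertk (-1.53 and -2.20) was the only gene of the TAM receptors and ligands past 1.5-fold, and Abca1 appears in 2 lists.

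Genes whose pattern over the 15 arrays was most like that of Mertk were searched among 2192 genes with a mean at or above the median gene and group means that spanned at least 1.5-fold. The highest Pearson correlations were those of Bco2 (0.962), Dus2 (0.937), Rai14 (0.931), C5ar2 (0.925) and Tafa3 (0.914). They are descriptions over arrays that share groups, and without the 2 outlying arrays the correlations were 0.976, 0.934, 0.940, 0.925 and 0.957. Within groups, on the deviations from the group means, the correlations with Mertk were 0.73 for Bco2, 0.62 for Rai14, 0.30 for Dus2, -0.49 for C5ar2 and -0.68 for Tafa3. Bco2, a carotenoid oxygenase, averaged 7.46 with curdlan and FK506 at 2 h, against 7.93 with curdlan, and 6.91 with curdlan and FK506 at 4 h, against 8.10 with curdlan, on the log2 scale. C5ar2, a second receptor of the complement fragment C5a, averaged 8.06 and 7.56 with curdlan and FK506 at these times, against 8.36 and 8.39 with curdlan. None of the other members of the TAM group had group means spanning 1.5-fold, so no likeness was sought for them.

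The genes beside Mertk on chromosome 2 were examined because they share its region. The 3 nearest measured genes on each side were taken, a choice made after the data had been seen. None of the 6 was called with FK506. Anapc1, 11.5 kb before Mertk and encoding a subunit of the anaphase-promoting complex, had FK506 differences of 0.00 at 2 h and 0.00 at 4 h on the log2 scale. Tmem87b, 15.1 kb beyond the end of Mertk, had -0.27 (adjusted p = 0.163) and -0.57 (adjusted p = 0.00230), the second just short of 1.5-fold. Its log2 levels at 4 h were 8.16, 8.29 and 8.31 with curdlan and FK506, against 8.80, 8.89 and 8.78 with curdlan, and nontreated cells had 7.81, 8.31 and 8.22. Tmem87b rose with curdlan at 4 h (0.71, adjusted p = 9.33e-05, and 0.56, under 1.5-fold, without nontreated replicate 1) and with curdlan and FK506 was 0.14 from nontreated cells (adjusted p = 0.360). The remaining neighbours, Morrbid, Spdye4c, Fbln7 and Zc3h8, lay between -0.13 and 0.22 at both times.

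**Figure D4:**
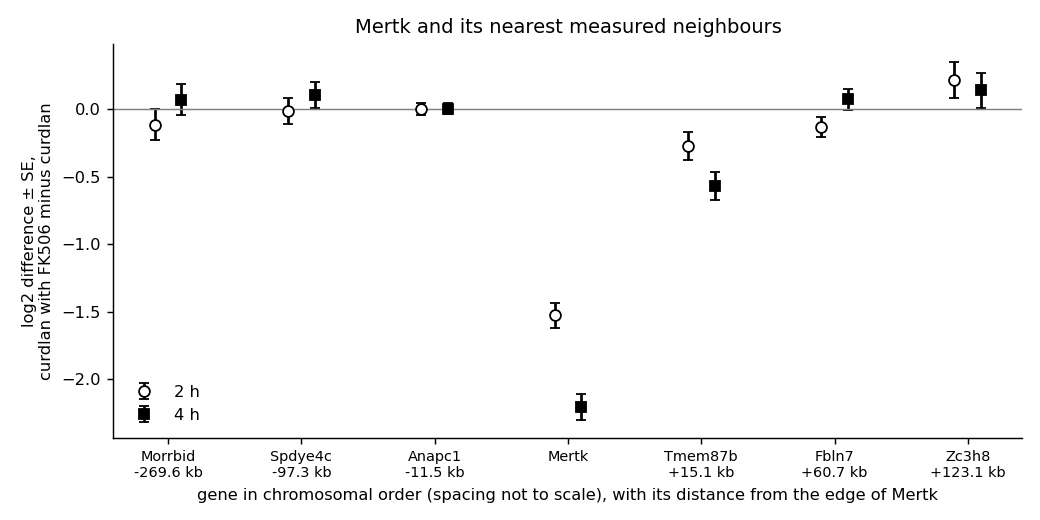
Log2 difference, curdlan with FK506 minus curdlan, ± SE (y axis) for Mertk and the 3 nearest measured genes on each side, in chromosomal order with their distance from Mertk (x axis, spacing not to scale), at 2 h (open circles) and 4 h (filled squares). Mertk lies at -1.53 and -2.20, Tmem87b at -0.27 and -0.57, and the other neighbours between -0.13 and 0.22.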

How the data were processed

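The deposited values were log2 intensities of Affymetrix Mouse Gene 1.0 ST arrays that the authors had normalized together by RMA with the affy package in R 2.15.2. Of 34760 probe sets, 21640 had 1 gene symbol, 1321 several and 11799 none. Probe sets with 1 symbol were kept, and of several for a gene the one with the highest mean was used, which left 19937 genes. Differences were fitted with limma 3.58.1 in R 4.3.3 on all 15 arrays, with 1 mean per group and 10 residual degrees of freedom, two-sided, with Benjamini-Hochberg adjustment over all genes. A change was called at an adjusted p below 0.05 and at least 1.5-fold, which are the thresholds of the study's methods. The script was tested on simulated data. The number of arrays limits the precision, and p-values measure the spread between replicates of 1 cell line. No 2 arrays held identical values.

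The 5 genes and all other gene lists were chosen with earlier results of these data known. All members are described. Of each pathway list, for curdlan with FK506 against curdlan and for curdlan against nontreated cells, the genes that passed the test are named (up to 4, largest first), or the largest differences where none passed, with a few known genes added after their values were seen. Lists of markers of other cell types are given by their counts with the genes called in those comparisons, which were Cd5 of the T cell list and Klrk1 of the NK cell list. None of the B cell, neutrophil, fibroblast, mast cell and basophil markers or of 10 housekeeping genes was called in them. Promoter sequences came from RefSeq (GRCm38.p6). Alternatives covered pairwise fits, a block for replicate number, median and housekeeping centring, a repeated quantile normalization, a filter on dim genes, array weights, no fold threshold, a trended robust fit, the mean over probe sets, and leaving out each array or both outlying arrays.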

Additional observations from a re-analysis of the deposited data

Results flagged for a closer look

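In all the gene lists used here, 3 genes had an FK506 difference (curdlan with FK506 minus curdlan) at 4 h that differed from that at 2 h. This change was itself tested in limma. Mertk (-0.68) was left out of the count, because it was selected on these arrays. Of all genes, 1.23% were called in this comparison, so the count is not read as a result about the lists. For Abca1 the difference at 4 h minus that at 2 h was 0.72 on the log2 scale. For Rcan1, which encodes a calcineurin regulator and was part of the check of calcineurin inhibition, it was 0.88. For Ccr7, the chemokine receptor that guides DCs to lymph nodes, it was -0.62. The FK506 differences of Abca1 were -0.91 at 2 h and -0.19 at 4 h, those of Rcan1 -1.57 and -0.69, and those of Ccr7 0.09 and -0.53. For Ccr7 the value was -0.51 with array weights, -0.56 after a repeated quantile normalization and -0.56 without curdlan 4 h replicate 1, all under 1.5-fold.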

How the results depend on the processing

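No called difference changed sign. Mertk was called lower in cells given curdlan with FK506 than in nontreated cells under every alternative, by -1.26 to -1.01 at 2 h and -2.10 to -1.86 at 4 h, and its differences from curdlan ran from -1.60 to -1.46 at 2 h and from -2.26 to -2.16 at 4 h (log2 scale). Without the 1.5-fold threshold these further differences from nontreated cells would count as changed: Axl (0.19) and Tyro3 (-0.27) with curdlan and FK506 at 2 h, Axl (0.37) and Pros1 (-0.26) with both at 4 h, Mertk with curdlan at 2 h (0.40), and Mertk (0.27), Axl (0.27), Tyro3 (-0.35) and Pros1 (-0.31) with curdlan at 4 h. So would Axl at 4 h against 2 h with curdlan and FK506 (0.17) and with curdlan (0.19). For all genes, the numbers called then became 1509 at 2 h and 2327 at 4 h for curdlan with FK506 against curdlan, 3515 and 5175 for curdlan with FK506 against nontreated, 4004 and 7432 for curdlan against nontreated, 2788 for 4 h against 2 h with curdlan and FK506, 5191 with curdlan, and 872 for the change of the FK506 difference. These follow from the removed threshold.

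Same-numbered replicates did not vary together (correlations of their deviations from -0.73 to 0.58 over 30 pairs, 9 above 0.1), so the replicate number pairs no samples. With it as a block, Mertk was -1.12 at 2 h and -1.94 at 4 h with curdlan and FK506 against nontreated cells, the number called of all genes was 222 at 2 h and 347 at 4 h with FK506 against curdlan, and no call of the 5 genes changed. Small uncalled differences of Gas6, Pros1 and Axl changed sign under some alternatives. The standard error of a difference between groups had a median of 0.08 on the log2 scale. For the other named genes, 32 of 2234 values lost the call (in 14 of 130 results), 7 gained it, and none was called in the opposite direction.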
